A study of Mus musculus with 8 samples.

Results

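The genes described here are 40 complement and coagulation factors of the liver, taken by name from a list and read in whole-liver 3′ RNA-seq of young mice. All 40 of the 40 listed genes were in the table of 14506 genes, and all 40 passed the filter on low values (a mean of at least 10 normalized counts over the 8 livers), which left 11174 genes for testing. The list holds 8 genes of the classical and lectin start of complement, 2 of the C3 and alternative step, 6 of the terminal pathway and 3 of complement control. It also holds 5 genes of the contact and kinin system, 7 vitamin K dependent clotting proteins, 5 genes of the clot itself, 2 of fibrinolysis and 2 other plasma proteins.

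Complement and coagulation are cascades of plasma proteases and their cofactors, most of them made by hepatocytes and secreted as inactive precursors. In complement, antibody, mannose-binding lectins or slow turnover of C3 lead to cleavage of C3, and the late components then assemble a pore in the target membrane. In coagulation, protease steps end with thrombin, which cuts fibrinogen into fibrin, while plasmin later dissolves the clot. Several of these genes, fibrinogen among them, are known as acute phase genes that respond to interleukin 6 in hepatocytes, and in laboratory mice the terminal complement components are known to be more abundant in males.

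Livers came from 4 Rragc+/+ and 4 Rragc S74N/+ mice, all C57BL/6. S74N is a point mutation in RagC, one of the Rag GTPases through which nutrients activate the growth kinase complex mTORC1. It was introduced by Cas9 with a repair oligo that also carried silent changes, and it is present in 1 allele in every cell of the mouse, so a difference in the liver need not begin in hepatocytes. Per the labels, Rragc+/+ livers 1 to 3 and Rragc S74N/+ livers 1 and 2 were from 3-month-old mice, liver 4 of Rragc+/+ and liver 3 of Rragc S74N/+ from 2.5-month-old mice, and Rragc S74N/+ liver 4 from a 2-month-old mouse, so that age and genotype were not balanced. The labels name no treatment and do not give the sex of the mice, and 3′ tags do not read the S74N codon, so the counts do not check the genotype.

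Between 4313076 and 6632108 reads per liver were counted in listed genes. The unit used throughout is the normalized count, reads divided by a size factor of the liver (0.707 to 1.23 here). With a 3′ kit a transcript gives about 1 tag whatever its length, so levels can be set side by side between genes on this scale. Hepatocyte markers were abundant in every liver (6 of 6 listed, summed level 260795 to 378797 normalized counts in Rragc+/+ and 281951 to 483745 in Rragc S74N/+). Rragc S74N/+ liver 4, from the youngest mouse, stood apart: its summed level of 13 genes known to be higher in male liver was 17648 normalized counts, where Rragc S74N/+ livers 1 to 3 had 36571 to 65174 and Rragc+/+ livers 78993 to 86803, and that of genes known to be higher in female liver was 1002, against 25.2 to 91.4 elsewhere. Of 13 such female-biased genes listed, 5 were in the table, and Cyp17a1 alone gave 799 of that sum. For the members whose highest or lowest value was in this liver, the fold change without it is given too.

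The 40 genes took 2.64%, 2.70%, 2.57% and 2.84% of the reads in Rragc+/+ livers and 2.87%, 2.88%, 3.30% and 3.90% in Rragc S74N/+ livers. These ranges did not overlap, but the share is carried by the few most abundant genes and was not tested. Averaged over genes with equal weight, the mean log2 level of the 40 was 10.90, 10.83, 10.90 and 10.95 in Rragc+/+ and 10.86, 10.85, 11.07 and 10.97 in Rragc S74N/+, or 10.90 ± 0.05 against 10.93 ± 0.10 (SD, n = 4 each). The difference of 0.04 was smaller than the spread among Rragc S74N/+ livers. Ahsg (fetuin-A, a mineral-binding plasma protein) was the highest of the 40 with a mean of 33904 normalized counts, place 21 among all genes of the table, followed by Fgb at 23051, C3 at 16788 and Kng1 at 10680. F11 (112) and Pros1 (136) were the lowest.

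Which of these factors differed between genotypes was tested with limma on log2(normalized count + 1) over all 11174 genes. None of the 40 passed an adjusted p of 0.05, and their adjusted p ranged from 0.846 to 0.993. Over all tested genes 0.00895% passed, which is 1 gene. At an unadjusted p under 0.05, Mbl2 was the 1 member with a higher level in Rragc S74N/+, against a background of 2.37% of tested genes, and F11 was the 1 member with a lower level, against 2.8%. The groups did not overlap for F11 alone, which was lower in Rragc S74N/+ as were 1.64% of tested genes. No member was higher without overlap, as were 1.3% of tested genes. Log2 fold changes of Rragc S74N/+ over Rragc+/+ ran from -0.88 (F11) to 0.59 (Pros1), with 23 positive, 17 negative and a median of 0.05, against 0.01 over all tested genes. The edgeR quasi-likelihood test and DESeq2 on the recovered reads also called 0 of the 40 at an adjusted p of 0.05 and 2 of the 40 (F11 and Mbl2) at an unadjusted p under 0.05.

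**Figure D1:**
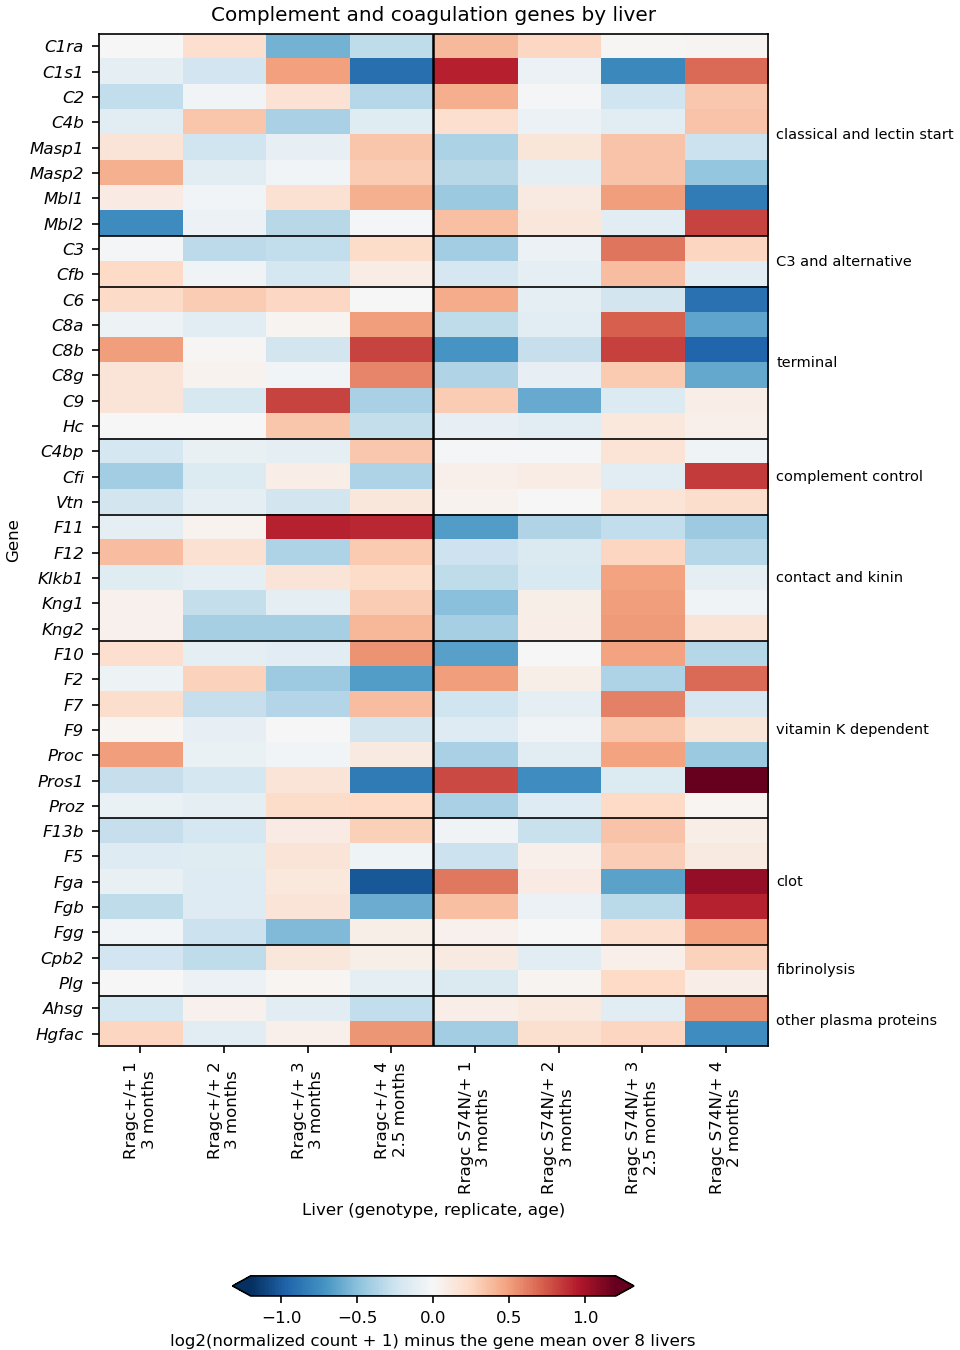
Each row is 1 of the 40 genes, grouped by role, and each column is 1 liver with its genotype, replicate and age; the colour is log2(normalized count + 1) minus the mean of that gene over 8 livers, with deviations beyond 1.2 shown at the end of the scale. Rragc S74N/+ liver 3 held the highest value of 15 genes, and Rragc S74N/+ liver 4 held the highest of 11 and the lowest of 8.

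**Figure D2:**
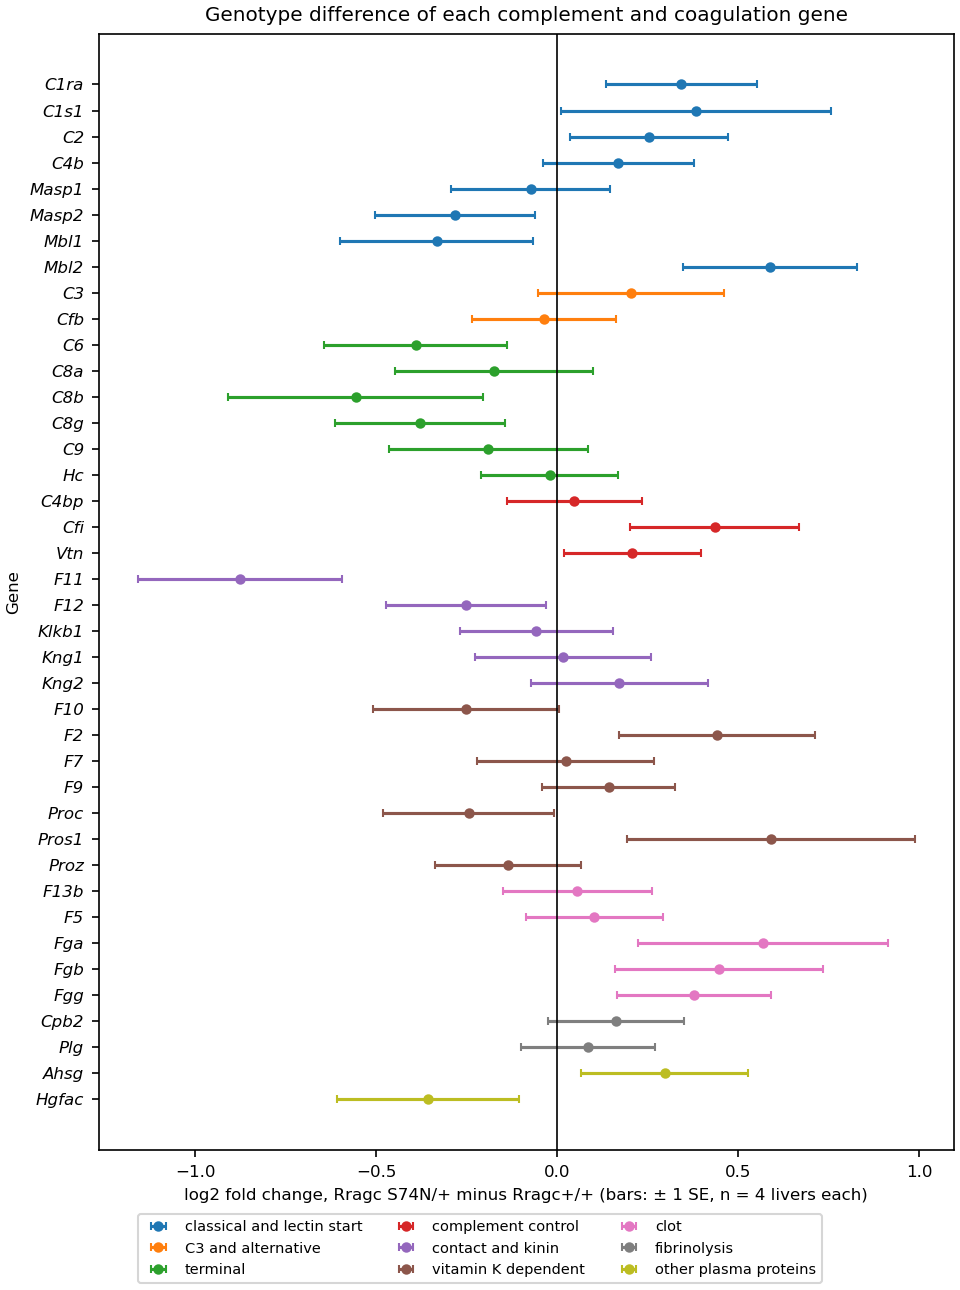
Points give the log2 fold change of Rragc S74N/+ minus Rragc+/+ for each of the 40 genes and bars give ± 1 SE from limma (n = 4 livers each), coloured by role. F11 lies farthest to the left at -0.88 and Pros1 and Mbl2 farthest to the right at 0.59, and none passed the adjusted test.

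F11 encodes factor XI, the zymogen that the contact system activates to feed thrombin generation. Its level was 95.1, 106, 195 and 193 normalized counts in Rragc+/+ livers and 64.3, 80.0, 83.6 and 75.9 in Rragc S74N/+ livers. The lowest Rragc+/+ liver lay above the highest Rragc S74N/+ liver, although Rragc+/+ livers 1 and 2 were close to the Rragc S74N/+ values and livers 3 and 4 well above them. The means were 147 ± 54.4 and 75.9 ± 8.39 (SD, n = 4 each). On the log2 scale this was a change of -0.88 (SE 0.28). An exact two-sided permutation test gave p = 0.0286, which is the smallest this design allows, and the limma adjusted p was 0.846. These values rest on 70 to 207 reads per liver. In whole liver, fewer cells that make a transcript and less of it per cell cannot be told apart, for F11 and for every gene below.

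Of the other genes of the contact and kinin system, none passed the test. Klkb1, which encodes prekallikrein and lies 4658 bases from F11 on chromosome 8 (F11 at chr8:45241174-45262031 and Klkb1 at chr8:45266689-45294859, both on the minus strand, GRCm38), had a log2 fold change of -0.06 (SE 0.21). No word of 50 bases within the last 500 bases of the annotated F11 transcripts occurred in Klkb1. F12, the factor that starts the contact pathway, was at 3998 ± 844 normalized counts in Rragc+/+ and 3336 ± 660.0 in Rragc S74N/+ (log2 fold change -0.25). Kng1 and Kng2 encode kininogens, the source of bradykinin, with log2 fold changes of 0.01 and 0.17. The kininogen genes share sequence near the 3′ end (10.7% of the 50-base words of the last 500 bases of Kng1 transcripts occur in Kng2). Reads from those words do not tell the genes apart, and whether they were counted or left out was not examined.

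Mbl2 encodes a mannose-binding lectin that recognises microbial sugars and starts the lectin pathway. It was measured at 743, 1193, 992 and 1229 normalized counts in Rragc+/+ livers and at 1606, 1370.5, 1144 and 2199 in Rragc S74N/+ livers. Rragc S74N/+ liver 3 lay inside the Rragc+/+ range, while liver 4 was the highest of all. The log2 fold change was 0.59 (SE 0.24), with an exact two-sided permutation p of 0.0857 and a limma adjusted p of 0.846. Without Rragc S74N/+ liver 4 it was 0.42. Mbl1, the other mannose-binding lectin, had values of 1845, 1686, 1951 and 2309.5 in Rragc+/+ and 1268, 1860.2, 2440.5 and 965 in Rragc S74N/+, and its log2 fold change was -0.33 (SE 0.27), or -0.11 without liver 4. Its lowest and its highest value were both in Rragc S74N/+ livers, in liver 4 and liver 3, whereas Mbl2 was highest in liver 4. The last 500 bases of Mbl1 and Mbl2 transcripts shared 0 words of 50 bases, so their tags can be told apart.

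Among the lectin proteases that act with these lectins, Masp1 was at 708 ± 124 against 678 ± 159 normalized counts (log2 fold change -0.07) and Masp2 at 1509 ± 277 against 1253 ± 323 (log2 fold change -0.28, and -0.18 without Rragc S74N/+ liver 4). The proteases of the classical pathway and the components they cut had positive log2 fold changes that did not pass the test, 0.34 for C1ra, 0.38 for C1s1, 0.25 for C2 and 0.17 for C4b. Without Rragc S74N/+ liver 4 these were 0.39, 0.22, 0.19 and 0.084. C1s1, the protease that cuts C4 and C2, varied most of these, by 3.59-fold between livers, with 230.3, 213, 351 and 133 normalized counts in Rragc+/+ and 477, 237, 146 and 401 in Rragc S74N/+. Its values were lowest in the pair of livers from 2.5-month-old mice, Rragc+/+ liver 4 and Rragc S74N/+ liver 3. C1ra, C1s1 and C4b each have a near copy (C1rb, C1s2 and C4a), and 19.1%, 27.2% and 23.9% of the 50-base words of their last 500 transcript bases occur in that copy. Reads from such words do not tell a gene from its copy, and whether they were counted or left out was not examined.

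C3, on which every complement pathway converges, was at 16202, 13099, 13300.0 and 18988 normalized counts in Rragc+/+ and 12201, 15528, 25444 and 19544 in Rragc S74N/+. Rragc S74N/+ livers held both the lowest and the highest value, and the log2 fold change of 0.20 (SE 0.26) did not pass the test. Cfb, which forms the alternative convertase with C3, had 4487, 3699, 3299 and 4038 and 3311, 3530.1, 4916 and 3470.3 in the same order, with a log2 fold change of -0.04. Liver 3 of Rragc S74N/+ lay above the other livers of that genotype for both genes.

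All 6 terminal pathway genes had a negative log2 fold change and none passed the test, with values of -0.56 for C8b, -0.39 for C6, -0.38 for C8g, -0.19 for C9, -0.17 for C8a and -0.02 for Hc, which encodes C5. Their mean log2 level was 11.24 ± 0.09 in Rragc+/+ and 10.95 ± 0.31 in Rragc S74N/+ (SD, n = 4 each), or 11.26, 11.10, 11.29 and 11.30 against 10.98, 10.87, 11.36 and 10.61 by liver. The wider spread came from Rragc S74N/+ livers 3 and 4, the highest and the lowest of the 8. Without Rragc S74N/+ liver 4 the median log2 fold change of the 6 went from -0.29 to -0.20, with -0.33 for C8b, -0.24 for C8g and 0.0060 for C8a. Without Rragc S74N/+ liver 3 C8b was at -0.92, C8g at -0.55 and C8a at -0.44, and without Rragc+/+ liver 3 both Hc and C9 were positive.

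C6, the component that binds C5b to begin the pore, was at 1272, 1337, 1286 and 1087 normalized counts in Rragc+/+ and 1476, 1003, 928 and 583 in Rragc S74N/+. Liver 1 of Rragc S74N/+ was the highest of all 8 and liver 4 the lowest, and the log2 fold change was -0.39 (SE 0.25), or -0.16 without liver 4. The summed level of genes known to be higher in male liver was likewise lowest in liver 4, as given above, and its part in the result was not tested. C8b, the beta chain of C8, which inserts into the membrane, was at 5345, 3813, 3237 and 6599 in Rragc+/+ and 2299, 3106, 6666 and 1952 in Rragc S74N/+. Its highest values were in the livers of the 2.5-month-old mice, 1 of each genotype. C8a lies 11131 bases from C8b on chromosome 4 and followed the same order at its ends, with 2438, 2322, 2603 and 3603 in Rragc+/+ and 2056, 2313, 4188 and 1642 in Rragc S74N/+. C8g, the third C8 chain, on chromosome 2, had 4459, 4113, 3903 and 6009 and 3106, 3735, 4971 and 2603 and was again lowest in Rragc S74N/+ liver 4. C9, which polymerises into the pore, was at 1987 ± 778 against 1696 ± 434, and Hc at 1531 ± 269 against 1496 ± 133 (SD, n = 4 each).

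The 3 genes of complement control all had positive log2 fold changes, none past the test. Cfi, the protease that inactivates C3b and C4b, was at 509, 608, 720.0 and 526 normalized counts in Rragc+/+ and 709, 724, 625 and 1221 in Rragc S74N/+, so that liver 4 alone lay far above the Rragc+/+ range. Its log2 fold change was 0.43 (SE 0.23), and 0.23 without that liver. Vtn, which encodes vitronectin, an inhibitor of pore assembly, had 7721, 8333, 7708 and 9837 and 9243, 8934, 10083 and 10422, and Rragc+/+ liver 4 alone reached into the Rragc S74N/+ range. Its log2 fold change of 0.21 (SE 0.19) had an exact two-sided permutation p of 0.0857, and the value without Rragc S74N/+ liver 4 was 0.17. C4bp, a cofactor for the decay of C4b, was at 927 ± 163 against 949 ± 63.2 (log2 fold change 0.05).

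**Figure D3:**
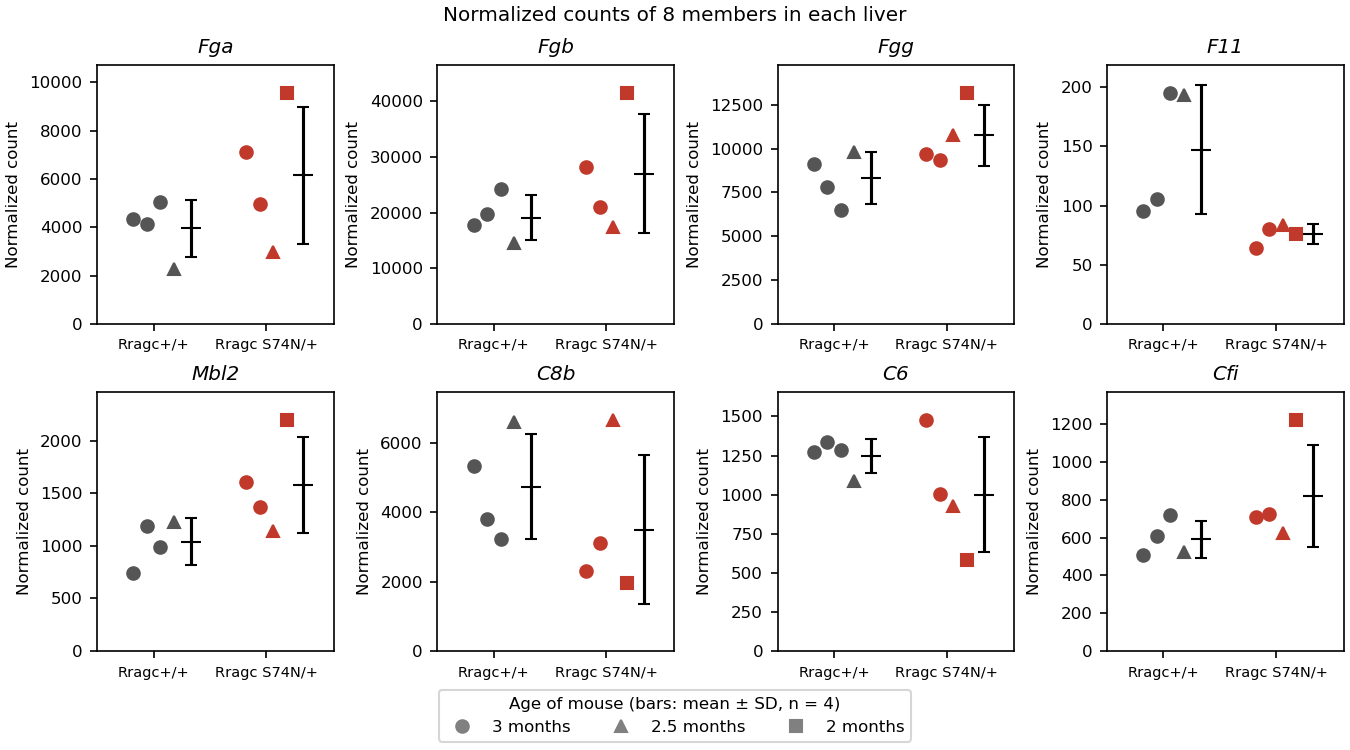
Each panel shows the normalized count of 1 gene (linear axis from 0) in 8 livers by genotype, with the symbol giving the age of the mouse and bars giving the mean ± SD (n = 4). F11 is the gene whose genotypes do not overlap (64.3 to 83.6 against 95.1 to 195). Fga and Fgb are lowest, and C8b highest, in the 2.5-month-old mice.

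Fibrinogen is built from alpha, beta and gamma chains in equal number, encoded by Fga, Fgb and Fgg, which lie together on chromosome 3 (Fgg at chr3:83007724-83015049, Fga at chr3:83026076-83033627 and Fgb at chr3:83040141-83049863, GRCm38, with Fgb on the minus strand). Fga was at 4332, 4142, 5047 and 2281 normalized counts in Rragc+/+ and 7139, 4957, 2959.8 and 9567 in Rragc S74N/+. Fgb was at 17786, 19698, 24308 and 14542 and 28135, 20928, 17491 and 41522 in the same order. For both, Rragc S74N/+ liver 4 was the highest and Rragc+/+ liver 4 the lowest, and the ranges overlapped widely. Fgg was at 9137, 7809, 6479 and 9801 in Rragc+/+ and 9705, 9359, 10772 and 13169 in Rragc S74N/+, with less spread and a different order, since Rragc+/+ liver 4 and Rragc S74N/+ liver 3 were high for Fgg and low for the other chains. Log2 fold changes were 0.57 (SE 0.35) for Fga, 0.45 (SE 0.29) for Fgb and 0.38 (SE 0.21) for Fgg, and none passed the test. Without Rragc S74N/+ liver 4 they were 0.31, 0.21 and 0.26.

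Across the 8 livers the log2 levels of Fga and Fgb were correlated, with Pearson r = 0.951 (exact permutation p = 7.44e-05, adjusted over 3 pairs 0.000223) and Spearman rho = 0.976 (exact permutation p = 0.000397). The coefficient was 0.894 without the livers farthest from the median of Fga (Rragc S74N/+ liver 4 and Rragc+/+ liver 4), 0.896 within Rragc+/+ and 0.958 within Rragc S74N/+, on 4 livers each. Fga and Fgg gave r = 0.237 (exact permutation p = 0.587, adjusted 0.587; rho = 0.0238), and -0.23 without the same pair of livers. Fgb and Fgg gave r = 0.337 (exact permutation p = 0.408, adjusted 0.587; rho = 0), and -0.31 without them. Leaving out Rragc S74N/+ liver 4 alone turned both coefficients with Fgg negative, to -0.33 and -0.39. Within genotypes they had opposite signs, -0.77 in Rragc+/+ and 0.43 in Rragc S74N/+ for Fga and Fgg, and -0.97 and 0.67 for Fgb and Fgg. All the values share the livers and their size factors, and the relation of Fgg to the other chains was therefore not resolved with 8 livers. F2, Pros1, Ahsg and Serping1 had their highest and lowest values in the same livers as Fga and Fgb. How many genes follow Fga as closely as Fgb does was not counted, so the tie is not shown to be particular to these chains.

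**Figure D4:**
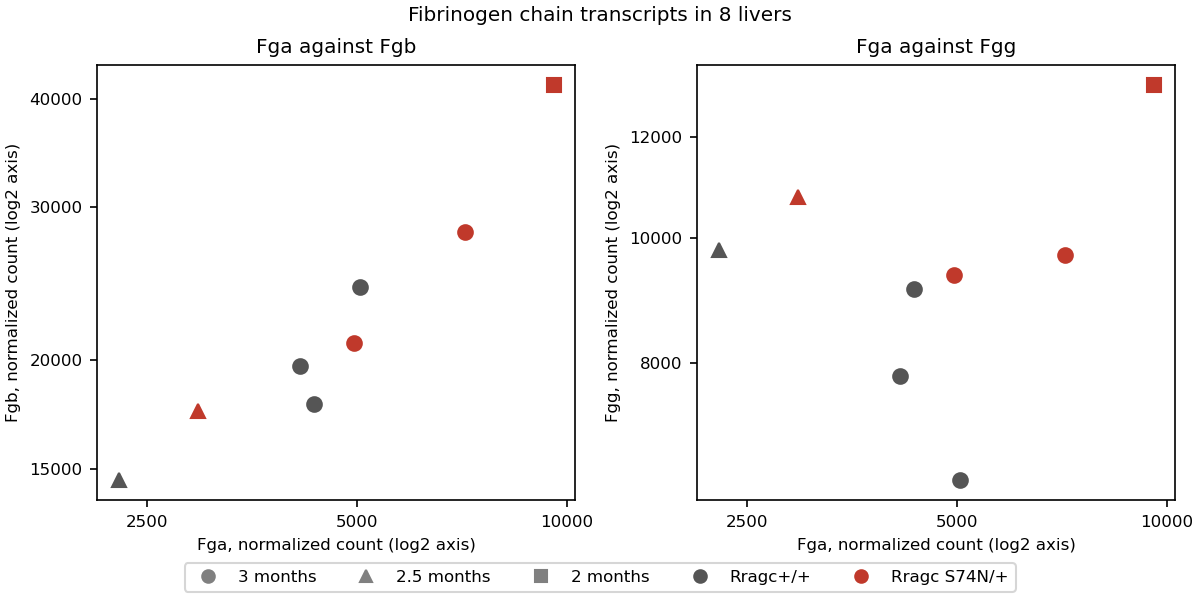
Each point is 1 liver, with the normalized count of Fga on the x axis and that of Fgb (left) or Fgg (right) on the y axis, all on log2 axes; colour gives genotype and symbol gives age. Fgb rises with Fga over all 8 livers (r = 0.951), while the points for Fgg are scattered (r = 0.237, of opposite sign within the genotypes).

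The promoters of the 3 fibrinogen genes are shown because the chains are known to be controlled together in the liver and Fga and Fgb went together here, while the relation of Fgg to them was not resolved. Each sequence is the 250 bases before the RefSeq transcription start (GRCm38.p6), 5′ to 3′ on the strand of the gene. Capitals mark matches on either strand to the C/EBP palindrome TTGCNNCAA, the STAT3 site TTCNNNGAA and the interleukin 6 type II element CTGGGAA.
Fga, chr3:83025903-83026152, plus strand: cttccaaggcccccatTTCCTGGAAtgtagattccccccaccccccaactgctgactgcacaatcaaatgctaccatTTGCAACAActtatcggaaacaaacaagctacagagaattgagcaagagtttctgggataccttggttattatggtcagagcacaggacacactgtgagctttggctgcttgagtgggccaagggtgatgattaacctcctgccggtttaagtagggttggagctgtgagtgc
Fgb, chr3:83049864-83050113, minus strand: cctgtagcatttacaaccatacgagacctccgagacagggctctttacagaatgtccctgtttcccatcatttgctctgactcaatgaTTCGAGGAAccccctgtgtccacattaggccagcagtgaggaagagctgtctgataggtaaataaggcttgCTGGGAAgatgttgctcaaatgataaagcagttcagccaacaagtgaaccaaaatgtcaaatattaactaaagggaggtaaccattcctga
Fgg, chr3:83007474-83007723, plus strand: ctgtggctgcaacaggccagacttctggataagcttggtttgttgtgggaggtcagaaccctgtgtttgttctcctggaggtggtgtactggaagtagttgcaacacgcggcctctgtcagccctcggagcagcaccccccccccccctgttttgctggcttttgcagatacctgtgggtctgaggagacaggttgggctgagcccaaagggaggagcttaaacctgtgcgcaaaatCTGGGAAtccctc

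Fga and Fgb both held a match to the STAT3 site, 234 to 226 and 162 to 154 bases before the start. Fga also held the C/EBP palindrome (173 to 165 bases before the start). Fgg did not hold the STAT3 letters in this window, and its only capitals are an interleukin 6 type II element 13 to 7 bases before the start, an element that Fgb held 91 to 85 bases before its start. RefSeq promoters were found for 32 of the 40 genes, with 34 starts. The STAT3 site was in 20.6% of these starts and in 7.0% of all 32851 promoters, the interleukin 6 type II element in 14.7% and 9.1%, and the C/EBP palindrome in 5.9% and 1.7%. A looser C/EBP motif, TTNNGNAA, of which some matches overlap other motifs, was in 17 of the 34 starts and 36.8% of all promoters, and the HNF4 core CAAAGTCCA in 0% and 0.4%. The HNF1 core GTTAAT was planned but not searched, and its share over all promoters was not counted. Its letters on the opposite strand, ATTAAC, can be read in the Fga and Fgb sequences above and not in that of Fgg. The STAT3 letters are therefore not the only ones that Fga and Fgb share without Fgg. A match describes letters and not binding, and its absence says nothing of the factor.

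The other genes of the clot had small positive log2 fold changes. F5, the cofactor of factor Xa, was at 3251 ± 335 normalized counts in Rragc+/+ and 3509.6 ± 543 in Rragc S74N/+ (log2 fold change 0.10), and F13b, the carrier chain of the enzyme that cross-links fibrin, at 1044 ± 192 and 1084 ± 194 (log2 fold change 0.05). Within 3-month-old mice alone, 3 against 2 livers, both were slightly negative (-0.05 and -0.03).

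The 7 vitamin K dependent proteins went both ways, 4 positive and 3 negative, and none passed the test. F2, which encodes prothrombin, was at 2826, 3581, 2187 and 1860.1 normalized counts in Rragc+/+ and 4177, 3098, 2281 and 4744 in Rragc S74N/+, with a log2 fold change of 0.44 (SE 0.27), or 0.29 without Rragc S74N/+ liver 4. Like Fga and Fgb it was lowest in Rragc+/+ liver 4 and highest in Rragc S74N/+ liver 4. Pros1, which encodes protein S, the cofactor of activated protein C, varied by 4.49-fold between livers, more than any other member, from 98.8, 104, 134 and 66.3 in Rragc+/+ to 209, 71.1, 107 and 298 in Rragc S74N/+. Its log2 fold change of 0.59 had an SE of 0.40, and was 0.25 without Rragc S74N/+ liver 4. Proc, the precursor of activated protein C itself, had a log2 fold change of -0.25 (SE 0.24), or -0.14 without that liver.

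F7, F10 and Proz lie next to each other on chromosome 8, with 1499 bases between F7 and F10 and 4238 between F10 and Proz. F7 encodes the protease that tissue factor activates, F10 the protease that makes thrombin, and Proz a cofactor for inhibition of factor Xa. F7 was at 965, 687, 656 and 1084 normalized counts in Rragc+/+ and 707, 769.7, 1269 and 728 in Rragc S74N/+, and F10 at 3651, 2947, 2894 and 4595 and 2018, 3185, 4414 and 2499.6. Both were high in Rragc+/+ liver 4 and Rragc S74N/+ liver 3. Log2 fold changes were 0.02 for F7, -0.25 for F10 and -0.14 for Proz. F9, the X-linked haemophilia B gene, was at 1598 ± 121 against 1774 ± 269 (log2 fold change 0.14).

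Plg, which encodes plasminogen, was the steadiest of the 40, with 7685, 7329, 7838 and 7113 normalized counts in Rragc+/+ and 6819.8, 7888, 9074 and 8161 in Rragc S74N/+, a 1.33-fold range (log2 fold change 0.09, SE 0.19). Cpb2, which encodes a carboxypeptidase that protects fibrin from plasmin, was at 1281 ± 193 against 1429 ± 165 (log2 fold change 0.16, and 0.096 without Rragc S74N/+ liver 4). Ahsg was at 28805, 34591, 30364 and 27216 in Rragc+/+ and 35226, 36117, 30289 and 48624 in Rragc S74N/+, where liver 4 was again the highest (log2 fold change 0.30, SE 0.23, and 0.17 without it). Hgfac, a protease that activates hepatocyte growth factor, had 2497, 1900.3, 2179.9 and 3026 and 1561, 2385, 2491 and 1249.8 and was lowest in that same liver (log2 fold change -0.36, SE 0.25, and -0.17 without it).

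Single livers of the Rragc S74N/+ group held many of the extreme values. Liver 3 held the highest value of 15 of the 40 genes and the lowest of 0, against 15.4% and 13.4% of all tested genes. Liver 4 held the highest of 11 (Ahsg, C4b, Cfi, Cpb2, F2, Fga, Fgb, Fgg, Mbl2, Pros1 and Vtn) and the lowest of 8 (C6, C8a, C8b, C8g, Hgfac, Masp2, Mbl1 and Proc), against 17% and 18.4%. Without liver 3, 12 of the 40 had an unadjusted p under 0.05 (C1s1, C8b, C8g, Cfi, F11, F2, Fga, Fgb, Masp2, Mbl1, Mbl2 and Proc), beside 1682 of 11182 genes tested, and still none passed the adjusted threshold. Without liver 4, F11 alone had an unadjusted p under 0.05, beside 312 of 11104 genes tested.

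The 2.5-month-old mice, 1 of each genotype, were compared with the 5 mice of 3 months in a fit with genotype as a term, chosen after the values had been seen and without the 2-month-old mouse. Of the 40 genes, 16 were higher at 2.5 months without overlap, against 11.3% of tested genes, and 3 (C1s1, Fga and Fgb) were lower without overlap, against 12.9%. At an adjusted p of 0.05, 4 members passed, against 3.71% of tested genes. By limma, C8b and C8a were higher at 2.5 months, with log2 differences of 0.995 (SE 0.24, limma adjusted p = 0.0253) and 0.74 (SE 0.19, limma adjusted p = 0.0435). Fga and C1s1 were lower at 2.5 months, with differences of -0.99 (SE 0.21, limma adjusted p = 0.013) and -1.07 (SE 0.29, limma adjusted p = 0.048). In the 2-month-old mouse, left out of this fit, C8b (1952) and C8a (1642) were the lowest of all livers and Fga (9567) the highest. C1s1 was at 401 there, so none of the 4 differences continued to the youngest mouse. Leaving out either 2.5-month-old mouse, which leaves that age with 1 liver, left 0 of the 4 past the threshold, while calls over all tested genes went from 415 to 11 without Rragc+/+ liver 4 and 15 without Rragc S74N/+ liver 3. Leaving out Rragc+/+ liver 2 or Rragc S74N/+ liver 1 left Fga alone, with 253 and 215 calls over all tested genes. Handling or collection that went with age cannot be told apart from age.

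Further genes of both systems were read from longer lists. Of 31 further complement genes, 26 were in the table and 21 were tested, and 0 passed an adjusted p of 0.05. At an unadjusted p under 0.05, C1qc and Cfhr2 were higher in Rragc S74N/+, as were 2.37% of tested genes. C4a and Fcna were lower, as were 2.8% of tested genes. C1qc encodes a chain of C1q, made in liver mainly by Kupffer cells, and was at 64.3, 129, 103 and 56.1 normalized counts in Rragc+/+ and 241, 192, 60.2 and 311 in Rragc S74N/+. The other chains, C1qa and C1qb, had log2 fold changes of -0.07 and 0.17, and the 7 Kupffer cell markers summed to 2197 to 3171 in Rragc+/+ and 1982 to 3465 in Rragc S74N/+. Fcna, which encodes ficolin A of the lectin pathway, was at 507, 443, 283 and 569 and 291, 275, 247 and 144 (log2 fold change -0.91, SE 0.28, limma adjusted p = 0.846), with 1 Rragc S74N/+ liver inside the Rragc+/+ range.

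C4a, the near copy of C4b long known as sex-limited protein because male mice make more of it, was at 69.0, 74.8, 53.8 and 62.6 normalized counts in Rragc+/+ and 65.2, 27.6, 30.1 and 16.3 in Rragc S74N/+ (log2 fold change -1.05, SE 0.38, limma adjusted p = 0.846). These values rest on 20 to 80 reads per liver. Of the 50-base words of its last 500 transcript bases, 28.3% occur in C4b, whose mean level was 1984 against 49.9. Whether reads from these shared words were counted or left out, and so how far C4b affects the C4a level, was not examined. The lowest C4a value was in Rragc S74N/+ liver 4, the liver that stood apart for genes higher in male liver. All 13 of those genes had negative log2 fold changes, 8 of them at an unadjusted p under 0.05, against 2.8% of tested genes. Whether that moves C4a was not tested. The C4b level did not follow, with a log2 fold change of 0.17.

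Of 30 further clotting and fibrinolysis genes, 19 were in the table and 16 were tested, with 0 past the adjusted threshold. At an unadjusted p under 0.05, 1 was higher in Rragc S74N/+, as were 2.37% of tested genes. That gene was Fgl1, a fibrinogen-like hepatokine, with 256, 349, 419 and 359 normalized counts in Rragc+/+ and 757, 434, 559 and 2131 in Rragc S74N/+ (log2 fold change 1.21, SE 0.39, limma adjusted p = 0.846). All Rragc S74N/+ livers were above the highest Rragc+/+ liver, as for 1.3% of tested genes. Liver 4 of Rragc S74N/+ lay far above the other livers of that genotype. Inhibitors of these cascades had values of both signs, none past the test. Positive were 0.57 (SE 0.41) for Serping1, the C1 inhibitor, 0.33 (SE 0.22) for Serpinc1, which encodes antithrombin, and 0.41 (SE 0.30) for Serpinf2, the plasmin inhibitor. Negative were -0.10 (SE 0.21) for Serpina10, which inhibits factor Xa with protein Z, -0.28 (SE 0.21) for Clu, which encodes clusterin, and -0.37 (SE 0.38) for Cd55, which speeds the decay of C3 convertases. Serping1 was at 3149, 5442, 4779.9 and 1789 and 7504, 4918, 2305 and 8291, with its lowest values in the same 2.5-month-old mice as Fga. Ggcx, the carboxylase that vitamin K dependent proteins need, had -0.36 (SE 0.24).

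The 16 liver transcription factors and interleukin 6 receptor genes on a further list were all tested and 0 passed. Of these, 13 were positive, beside 5737 of all 11174 tested genes, and the median log2 fold change was 0.22. Il6st, an interleukin 6 receptor chain, was higher in Rragc S74N/+ without overlap, as were 1.3% of tested genes. It was at 424, 446, 488 and 506 normalized counts in Rragc+/+ and 538, 517, 522 and 599.6 in Rragc S74N/+ (log2 fold change 0.22, SE 0.18, limma adjusted p = 0.846). Stat3 was at 499, 697, 622 and 316 normalized counts in Rragc+/+ and 815, 581, 405 and 1450.5 in Rragc S74N/+. It was highest in Rragc S74N/+ liver 4 and lowest in Rragc+/+ liver 4, as Fga and Fgb were. Hnf4a, a main regulator of hepatocyte genes, was highest (811) and lowest (297) in the same livers, with a log2 fold change of 0.36 (SE 0.29). Socs3 was highest in Rragc S74N/+ liver 1 (72.5). Whether any of these genes has a part in the fibrinogen levels was not tested. Of 16 acute phase plasma proteins, again 0 passed the adjusted test. Fgl1, already counted above among the clotting genes, and Saa3 were higher at an unadjusted p under 0.05, as were 2.37% of tested genes. Saa1, a strongly inducible acute phase protein, was at 302, 243, 195 and 301 in Rragc+/+ and 281, 198, 202 and 976 in Rragc S74N/+, so that only liver 4 stood out, and the part of such a response in the high fibrinogen of that liver was not tested.

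Markers of other cells in the tissue gave no adjusted call. Unadjusted p was under 0.05 for 2 of 7 Kupffer cell genes tested (Adgre1 and Marco), 2 of 6 of liver endothelium (Lyve1 and Pecam1) and 1 of 5 of stellate cells (Col1a1). All of these were higher in Rragc S74N/+, as were 2.37% of tested genes. Other markers on these lists went the other way, with 5 of 7, 4 of 6 and 2 of 5 log2 fold changes positive. Clec4f (-0.37) and Csf1r (-0.38) of Kupffer cells, Stab2 (-0.24) of endothelium and Colec11 (-0.27) of stellate cells were among the negative ones. Unadjusted p was under 0.05 for 0 of 6 hepatocyte, 0 of 2 cholangiocyte and 0 of 2 neutrophil genes. No T and B cell marker was high enough to test. Of 6 kidney genes, read as a check on carried-over tissue, 5 were in the table and summed to 219 to 354 normalized counts in Rragc+/+ and 60.4 to 114 in Rragc S74N/+. Most of that sum in every liver was Kap and Gpx3, the 2 that were high enough to test. Slc12a1, Slc34a1 and Lrp2 were at 15.6 or less in every liver, and 2 of the 5 had a higher mean in Rragc S74N/+. The sum therefore does not show how much kidney was carried over. Gpx3 on that list is the 1 gene of the whole table that passed the adjusted test.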

How the data were processed

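Whole-liver RNA of 8 mice was sequenced with a 3′ mRNA kit. Per the labels and the study's methods, reads were placed on GRCm38 by the authors using TopHat2 2.0.10, Bowtie 1.0.0 and SAMtools 0.1.19 in the nextpresso pipeline and counted by strand with HTSeq 0.6.1. The deposited values are a signal that the authors made by scaling the read count per gene (DESeq size factors), for 14506 genes. All values (100%) were whole multiples of what 1 read is worth (tolerance 0.01), so the reads were recovered, 4313076 to 6632108 per liver. No molecular identifiers are stated for these libraries.

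Groups came from the genotype label and replicates are separate mice. Livers are numbered in accession order within a genotype. limma 3.58.1 (R 4.3.3) was fitted to log2(normalized count + 1). Genes whose mean reached 10 were kept (11174), and the model held genotype alone, with a mean-variance trend and Benjamini-Hochberg adjustment at 0.05, since the terms of the authors' model are not stated. This scale understates the change of low genes. Single genes were also tested by exact permutation over all 70 labellings, with a smallest p of 0.0286. The recovered reads were also tested with DESeq2 1.42.0 and edgeR 4.0.16, and scripts were tested on simulated data. Other pseudocounts (0.1 and 5), filters (none, or a mean of 50), TMM scaling, age terms, 3-month-old mice alone and leaving out each liver were tried. The fit of 2.5 against 3 months and age as a factor were added after the data were seen. Positions are from GENCODE vM21, while the authors counted with vM20. Promoters are from RefSeq (GRCm38.p6), and shared 3′ sequence was counted as exact words of 50 bases. The members, role groups, marker lists and motifs were chosen with earlier results of these data known. Genes named in the text are all the members, and of the other lists those at an unadjusted p under 0.05 or those added for their role. Some items are not reported here.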

Additional observations from a re-analysis of the deposited data

Results flagged for a closer look

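A Dixon gap test within each genotype marked 1 liver as far from the other 3 for 4 genes, out of 84 groups of 4 examined, and about 4.2 such marks (1 in 20) are given by chance. Cfb was at 4915.5 normalized counts in Rragc S74N/+ liver 3 and at 3310.7 to 3530.1 in the other livers of that genotype. F7 was at 1269.3 in the same liver against 706.95 to 769.66, and C4bp at 1043.1 against 905.52 to 924.54. Cfi was at 1221.2 in Rragc S74N/+ liver 4 against 625.17 to 724.33.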

How the results depend on the processing

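Under every alternative run, 0 of the 40 genes passed the adjusted threshold, and F11 stayed negative and at an unadjusted p under 0.05. The number at an unadjusted p under 0.05, 2 with the reported settings, was 1 without the mean-variance trend, 1 with age as a numeric covariate and 1 with age as a factor (Mbl2 being lost each time), 3 in 3-month-old mice alone (C8b, F11 and Mbl2), and 1 to 12 when 1 liver was left out. The causes were not tested. The 4 calls of 2.5 against 3 months became 0 without the mean-variance trend (8 of 11174 genes called) and 2 with edgeR (314 called), and 0 to 5 when 1 liver was left out.

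Small fold changes turned in sign. In 3-month-old mice alone log2 fold changes were -0.038 for C3, -0.049 for F5, -0.039 for F7, -0.079 for F9, -0.025 for F13b, -0.10 for Kng1 and -0.054 for Plg. With age as a number they were -0.0034 for C4bp, -0.057 for F7, -0.049 for F13b and -0.088 for Kng1, and with age as a factor -0.016 for Kng1. Leaving out 1 liver moved Hc between -0.12 and 0.085, C8a between -0.44 and 0.0060, C9 between -0.35 and 0.047, Cfb between -0.17 and 0.036, Masp1 between -0.20 and 0.040, C4bp between -0.016 and 0.16, F7 between -0.17 and 0.15, F13b between -0.051 and 0.16, Klkb1 between -0.23 and 0.032 and Kng1 between -0.15 and 0.18. The correlation of Fga with Fgg ran from -0.33 to 0.41 and that of Fgb with Fgg from -0.39 to 0.61, while that of Fga with Fgb stayed between 0.938 and 0.970. No paired analysis was possible because livers were numbered in accession order, which pairs no mice.

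With 4 livers per genotype and 1 library per mouse, a member that misses the threshold is not shown to be equal between genotypes. Age was not balanced, and RNA quality by liver was not analysed here.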
